A study of Mus musculus with 36 samples.

Results

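The response of the liver to partial hepatectomy (PHx, surgical removal of 70% of the liver) was set against the response of the quadriceps muscle in the same experiment, 3 days after the operation. For each gene the comparison was a difference of differences: PHx minus sham liver, minus PHx minus sham quadriceps, on the log2 scale. A positive difference means that the liver response lay above the muscle response, and it can come from a rise in liver, a fall in muscle or both. The genes were those counted well enough in both tissues, 12780 of the 14702 genes in the deposited count table. A further 1099 genes passed the expression filter in liver only, 821 in quadriceps only and 2 in neither, and these were left out.

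Total RNA came from frozen whole tissue of male C57BL6/J mice aged 12 to 14 weeks. The groups were 5 PHx livers, 3 sham livers, 5 PHx quadriceps muscles and 3 sham quadriceps muscles, all from animals with no genetic change named in the labels. Sham animals had a laparotomy with no liver removed. The day of the sham animals is not separately given, since the treatment label names day 3 for every sample. Livers and muscles were collected from the same set of 3 sham and 5 PHx animals, but the labels do not say that equal replicate numbers mark the same animal, so the p-values treat the libraries as independent and measure the spread between them. Which lobe was sampled is not stated. Reads assigned to genes ran between 19036100 and 25202224 per library in PHx livers, 22920877 and 28609231 in sham livers, 16302363 and 29623890 in PHx quadriceps and 20374466 and 24795800 in sham quadriceps.

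After partial hepatectomy the remaining hepatocytes, with biliary, endothelial and stellate cells, re-enter the cell cycle and the organ regrows. Cyclin D1 carries hepatocytes through G1, E2F factors then switch on the DNA replication machinery, and the DREAM and MuvB complexes with B-MYB and FOXM1 switch on the mitotic genes. The same injury is a systemic stress. Muscle under glucocorticoids, IL-6 family cytokines or low insulin raises the FOXO-driven atrophy programme, in which the ubiquitin ligases atrogin-1 (Fbxo32) and MuRF1 (Trim63), the proteasome and autophagy break down fibre proteins.

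Levels are given as CPM, read counts scaled to the library's effective size, which was set within each tissue. Levels are therefore compared between groups of a tissue. Markers fixed for each cell type matched the labels: Alb, the main plasma protein of hepatocytes, stood at 41676 to 57671 CPM in PHx livers and 61508 to 81991 CPM in sham livers, and Acta1, the skeletal muscle actin, at 7025 to 8610 CPM in PHx quadriceps and 13228 to 14633 CPM in sham quadriceps. In whole tissue, fewer cells of a type and less RNA per cell cannot be told apart. Some libraries carried transcripts of other tissues. The summed muscle markers lay at 45.5 to 212 CPM in PHx livers, highest in replicate 1, against 897 to 1503 CPM in sham livers, and the summed hepatocyte markers at 22.6 to 324 CPM in PHx quadriceps, highest in replicate 4, against 167 to 837 CPM in sham quadriceps. Cyp2e1 and Trf made up 32.6% to 92.1% of that hepatocyte sum in PHx quadriceps and 97.4% to 99.6% in sham quadriceps. Most single hepatocyte markers went the other way, with 12 of 16 up and 2 down in PHx quadriceps (median log2 fold change 4.31), and Alb stood at 0.483 to 95.8 CPM in PHx quadriceps against 0.733 to 1.58 CPM in sham quadriceps. Adipocyte markers summed to 96.8 to 662 CPM in PHx livers and 4253 to 5730 CPM in sham livers, and to 363 to 823 CPM in PHx quadriceps and 1816 to 8185 CPM in sham quadriceps, where replicate 3 was highest. In sham livers 94.6% to 99.5% of that sum was Car3 and Thrsp, which liver also expresses, and Adipoq, the adipocyte hormone adiponectin, stood at 0 to 0.206 CPM in PHx livers against 0.178, 21.7 and 0.0801 CPM in sham livers. Adipoq stood at 2.02 to 14 CPM in PHx quadriceps against 56.7 to 343 CPM in sham quadriceps. Pancreatic islet markers summed to 8.18 to 221 CPM in PHx livers against 0 to 0.0801 CPM in sham livers, and to 0 to 0.304 CPM in PHx quadriceps against 8.35 to 36.9 CPM in sham quadriceps. Among genes named here, PHx quadriceps replicate 5 stood apart from its group in 15 and PHx liver replicate 1 in 10. The part of these other-tissue transcripts in each result was not tested, and their values are given beside only some of the results they may touch.

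The liver minus quadriceps difference was called (edgeR quasi-likelihood test, Benjamini-Hochberg adjusted p under 0.05) for 5307 of the 12780 genes, 41.5% of those tested. It was higher in 2590 genes (20.3%) and lower in 2717 (21.3%). The responses of both tissues taken alone held 1939 genes up in liver (15.2%) and 1417 down (11.1%), and 3332 genes up in quadriceps (26.1%) and 2777 down (21.7%). Across genes the liver and muscle responses showed little relation, with a Pearson r of 0.03 and a Spearman rho of 0.01 over 12780 genes that share libraries and are not independent replicates. Without PHx quadriceps replicate 5 the counts were 2836 higher and 2891 lower, without PHx liver replicate 1 they were 2423 and 2734, and without sham quadriceps replicate 3 they were 2142 and 2353. The median difference was 0.04, with 5% of genes below -2.07 and 5% above 2.87 and a median standard error (SE) of 0.41.

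Among genes with a higher difference, a call in muscle alone was more common than a call in liver alone. Of the 2590 genes, 1137 (43.9%) were called down in quadriceps with no call in liver, 840 (32.4%) were called up in liver with no call in quadriceps, 396 (15.3%) were called up in liver and down in quadriceps, and 198 (7.64%) were called in neither tissue alone. Most genes with a lower difference were called up in muscle and not called in liver. Of the 2717 genes, 1858 (68.4%) were called up in quadriceps with no call in liver, 398 (14.6%) down in liver with no call in quadriceps, 290 (10.7%) down in liver and up in quadriceps, and 145 (5.34%) in neither alone. The remaining genes, 19 with a higher and 26 with a lower difference, were called in both tissues in the same direction with unequal size. A call in 1 tissue alone says nothing by itself about the other tissue, which is why the difference itself was tested.

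**Figure D1:**
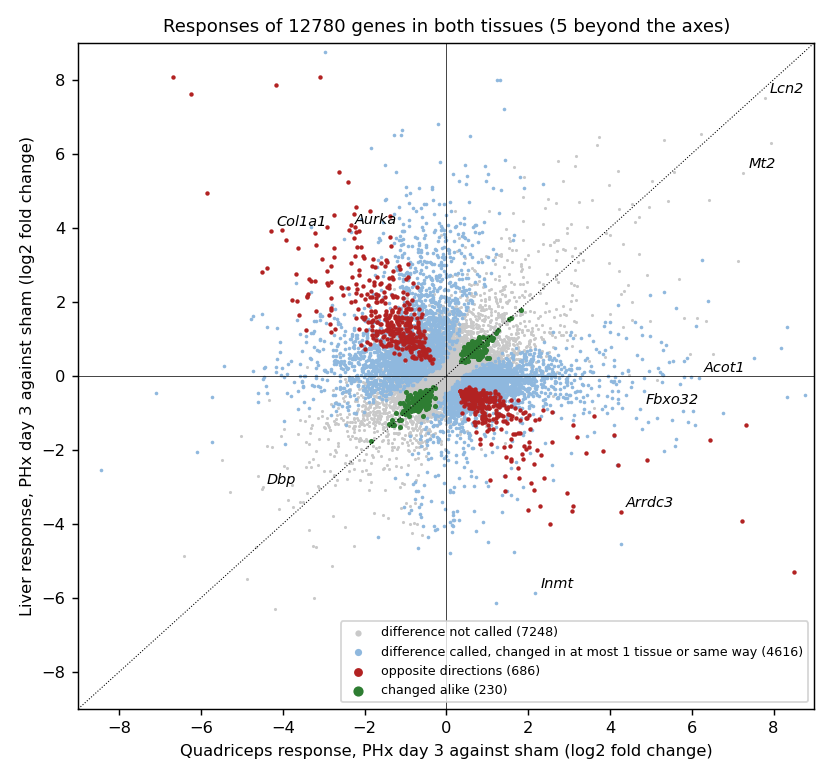
Liver response (vertical axis, log2 fold change of PHx against sham) against quadriceps response (horizontal axis, same unit) for the 12780 genes tested, with the dotted line marking equal responses and 5 genes beyond the axis limit of 9. The 686 genes called in opposite directions lie in the upper left and lower right, and the 230 genes changed alike lie close to the dotted line.

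Both tissues were called for 1406 genes, 41.9% of the 3356 liver calls and 23% of the 6109 quadriceps calls. Among them 720 moved in the same direction, 328 up and 392 down in both, and 686 moved in opposite directions. The opposite genes were 396 up in liver and down in quadriceps (3.1% of all tested) and 290 down in liver and up in quadriceps (2.27%). Without replicate 3 of the sham livers the count of opposite genes was 369, and without sham liver replicate 1 it was 406. Of the 720 genes with the same direction, 230 met the stricter rule for an alike change, which asked that the 95% interval of the difference lie within 1 log2 unit of 0. Those were 100 up (0.782%) and 130 down (1.02%), and without 1 sham library of either tissue between 109 and 140 in all. With effective library sizes set across both tissues together, the alike genes divided into 69 up and 172 down.

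The genes were read through 32 lists with known roles. Over all genes tested 20.3% had a higher and 21.3% a lower difference, and the counts of each list are to be read beside those shares. Counts of 5 or fewer in a list often moved by over 1.5 times when 1 library was left out, and nothing is read from them; larger counts that moved so far are given with their value without that library.

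**Figure D2:**
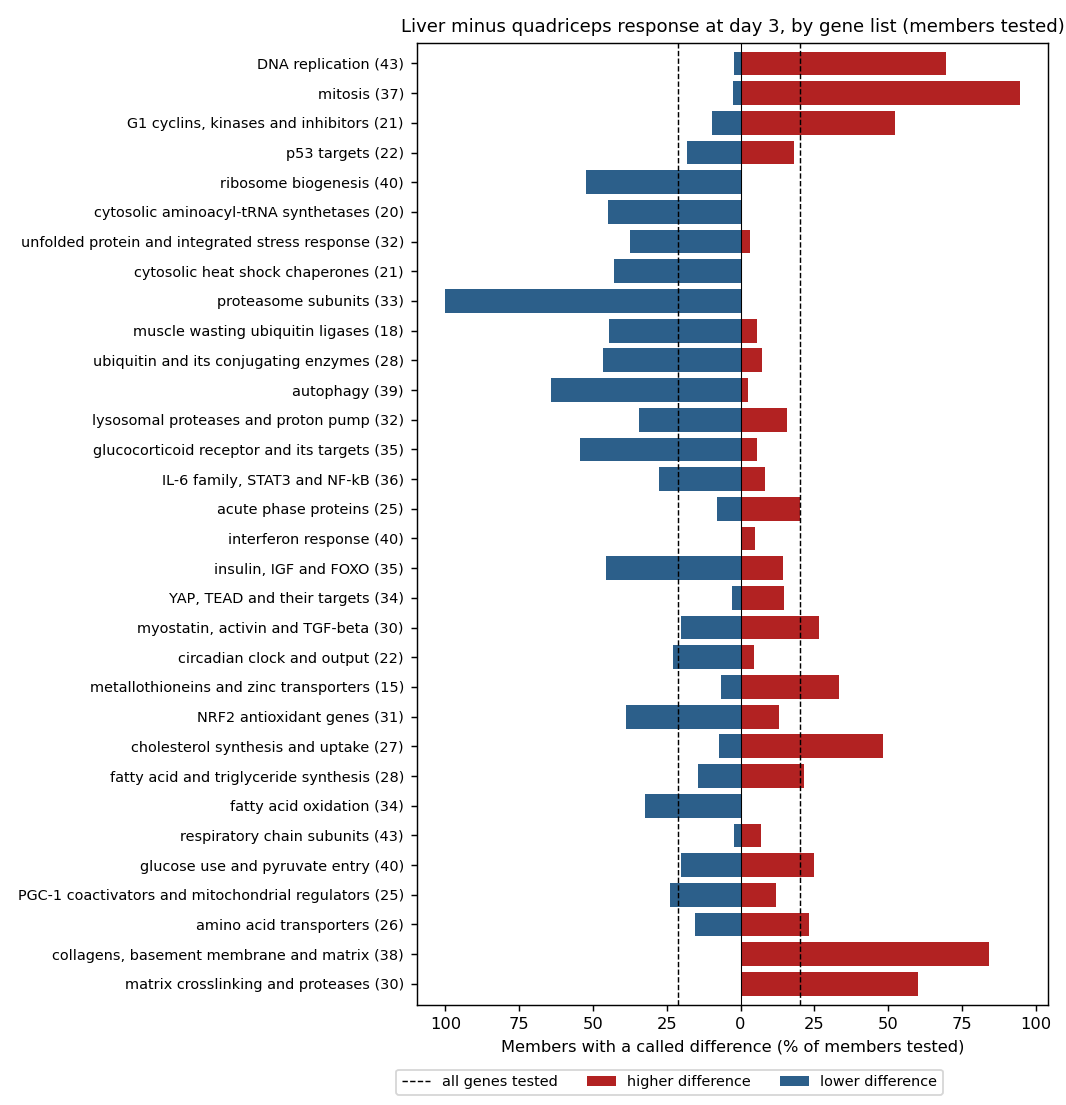
Share of the tested members of each gene list with a called liver minus quadriceps difference (horizontal axis, percent), lower to the left and higher to the right, with the number of members tested in brackets and dashed lines at the shares over all genes tested (21.3% and 20.3%). Mitosis, collagens and matrix, and DNA replication stand furthest to the right (35 of 37, 32 of 38 and 30 of 43 members), and proteasome subunits furthest to the left (33 of 33).

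The largest differences above 0 among genes of at least 5 CPM in each tissue included those of collagens, a lipid droplet protein and a neurotrophin receptor. Col1a1 (chr11:94936270-94951856, mm10), the main chain of type I collagen, stood at 82.6 to 178 CPM in the PHx livers, against 6.05 to 12.4 CPM in the sham livers. Quadriceps held Col1a1 at 5.75, 4.24, 5.97, 4.87 and 38.1 CPM in the PHx quadriceps muscles, against 294, 238 and 159 CPM in the sham quadriceps muscles. All PHx livers lay above all sham livers and all PHx muscles below all sham muscles, with muscle replicate 5 the highest of the PHx muscles. The difference was 8.19 ± 1.01 (± SE; edgeR, adjusted p 8.05e-06), from a liver response of 3.91 ± 0.71 and a quadriceps response of -4.28 ± 0.71, and 9.37 without PHx quadriceps replicate 5.

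Cidec (chr6:113424634-113435760), a lipid droplet protein of adipocytes and fatty hepatocytes, had a difference of 7.32 ± 1.88 (edgeR, adjusted p 0.00675). It stood at 267, 146, 46.6, 77.8 and 60.9 CPM in the PHx livers, against 2.57, 15.5 and 4.01 CPM in the sham livers, and at 9.93, 5.39, 15.9, 9.68 and 1.4 CPM in the PHx quadriceps muscles, against 31.2, 54.5 and 163 CPM in the sham quadriceps muscles. The PHx livers were all higher than the sham livers, and the PHx muscles were all lower than the sham muscles, of which replicate 3 was highest. The liver response of Cidec alone missed the threshold (adjusted p 0.0619), and the muscle call was lost without sham muscle replicate 2 or 3, among others. Without sham quadriceps replicate 3, the library richest in adipocyte markers, the difference was 6.37, and without sham liver replicate 2 it was 8.48. Mrap, the accessory protein of the ACTH receptor, differed by 6.17 ± 1.48 (edgeR, adjusted p 0.00295) with 166 to 325 CPM in the PHx livers, against 36.4 to 43.1 CPM in the sham livers, and 0.132 to 1.7 CPM in the PHx quadriceps muscles, against 5.66 to 27.2 CPM in the sham quadriceps muscles. Its difference was 5.18 without that sham muscle library.

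Npnt, which encodes the matrix protein nephronectin, and Ntrk2, the receptor for brain-derived neurotrophic factor, were also among the largest. Npnt stood at 27.6, 12.4, 3.21, 6.14 and 3.17 CPM in the PHx livers, against 0.749, 0.407 and 0.681 CPM in the sham livers, and in muscle at 5.94, 6.5, 4.86, 8.27 and 4.34 CPM in the PHx quadriceps muscles, against 12.3, 22.2 and 56.1 CPM in the sham quadriceps muscles. Its groups were fully separated in both tissues, though its muscle call was lost without sham quadriceps replicate 3 (edgeR, adjusted p 0.213), among others. Its difference was 6.41 ± 1.39 (edgeR, adjusted p 0.000952), 5.62 without PHx liver replicate 1 and 5.60 without sham quadriceps replicate 3. Ntrk2 stood at 5.72, 16.6, 8.55, 10.5 and 34.3 CPM in the PHx livers, against 1.11, 3.62 and 0.441 CPM in the sham livers, and in muscle at 4.6, 2.56, 4.55, 5.69 and 4.21 CPM in the PHx quadriceps muscles, against 19, 24.8 and 62.4 CPM in the sham quadriceps muscles, with a difference of 6.18 ± 1.14 (edgeR, adjusted p 0.000274). The liver call of Ntrk2 was lost without sham liver replicate 1 or 3 (adjusted p 0.0645 and 0.0764). Leaving out sham liver replicate 2 gave Ntrk2 a difference of 7.30, and leaving out sham quadriceps replicate 3 gave 5.49.

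The largest differences below 0 included those of a liver enzyme, an arrestin-domain protein and a muscle LIM protein. Inmt, an indolethylamine methyltransferase of liver, stood at 27.4, 1.08, 1.39, 0.504 and 7.2 CPM in the PHx livers, against 384, 547 and 399 CPM in the sham livers. Muscle held it at 99, 14.6, 20.5, 47.8 and 19.5 CPM in the PHx quadriceps muscles, against 7.63, 8.02 and 11.2 CPM in the sham quadriceps muscles. The PHx livers were far below the sham livers, replicate 1 least so, and the PHx muscles all lay above the sham muscles although the muscle response alone did not pass the test (adjusted p 0.157). The difference of Inmt was -8.04 ± 1.63 (edgeR, adjusted p 0.00123), -9.62 without PHx liver replicate 1 and -7.39 without PHx quadriceps replicate 1.

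Arrdc3 (chr13:80883422-80896043), an arrestin-domain protein that downregulates beta-adrenergic receptors, gave the difference furthest below 0 among those that no left-out library moved by over 1.5 times. It stood at 55.4, 31.1, 31.7, 31.4 and 35.4 CPM in the PHx livers, against 609, 563 and 246 CPM in the sham livers, and at 1517, 1438, 810, 1559 and 449 CPM in the PHx quadriceps muscles, against 70.8, 59.2 and 51.1 CPM in the sham quadriceps muscles. No library of either tissue crossed into the range of the other group. The difference was -7.93 ± 0.80 (edgeR, adjusted p 8.91e-07), with a liver response of -3.68 ± 0.56 and a quadriceps response of 4.26 ± 0.56.

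Csrp3, the muscle LIM protein of the sarcomere edge, differed by -6.11 ± 1.38 (edgeR, adjusted p 0.00164), with 0.734 to 1.69 CPM in the PHx livers, against 11.5 to 13 CPM in the sham livers, and in muscle 2.63 to 56.7 CPM in the PHx quadriceps muscles, against 0.663 to 8.77 CPM in the sham quadriceps muscles. Its muscle groups overlapped and its difference was -7.60 without sham quadriceps replicate 1. Its muscle call was lost without sham quadriceps replicate 2 or 3 or PHx replicate 3. Muscle transcripts in the sham livers, scaled to Acta1, would give 0.393% of the Csrp3 level there.

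Acot1 and Maff were called in muscle and not in liver. Acot1, a cytosolic thioesterase induced by fatty acids through PPAR-alpha, stood at 4.72 to 12 CPM in the PHx livers, against 7.73 to 8.89 CPM in the sham livers, and in muscle at 32.2, 15.7, 8.75, 5.94 and 22 CPM in the PHx quadriceps muscles, against 0.351, 0.122 and 0.221 CPM in the sham quadriceps muscles. Its difference was -6.22 ± 1.33 (edgeR, adjusted p 0.0004), with a quadriceps response of 6.17 ± 1.10. Maff, a small MAF partner of NRF2 induced by stress, stood at 8.47 to 124 CPM in the PHx quadriceps muscles, against 0.733 to 1.41 CPM in the sham quadriceps muscles, and differed by -5.92 ± 1.44 (edgeR, adjusted p 0.00274), while the livers overlapped at 5.61 to 8.34 CPM in the PHx livers, against 6.96 to 8.64 CPM in the sham livers.

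Among genes of at least 5 CPM in each tissue that rose in liver and fell in quadriceps, the first 5 by the smaller of the 2 responses were Col1a1, Ntrk2, Loxl2, Col3a1 and Col1a2. Col3a1 (chr1:45311538-45349706), the type III chain of reticular fibres, stood at 99.5 to 176 CPM in the PHx livers, against 15.8 to 23.2 CPM in the sham livers, and at 6.54, 3.02, 4.96, 4.72 and 32.7 CPM in the PHx quadriceps muscles, against 198, 257 and 252 CPM in the sham quadriceps muscles. Its difference was 7.29 ± 1.06 (edgeR, adjusted p 4.11e-05), 8.40 without PHx quadriceps replicate 5. The liver call was lost without sham liver replicate 2 (adjusted p 0.0533) or 3 (0.0691). Col1a2, the partner chain of Col1a1, rose by 2.62 on the log2 scale in liver and fell by 3.37 in quadriceps, a difference of 5.99 ± 0.74 (edgeR, adjusted p 3.48e-06). Loxl2 (chr14:69609476-69695834), a lysyl oxidase that crosslinks collagen, stood at 40.5, 45, 27.5, 43.7 and 30.8 CPM in the PHx livers, against 5.07, 5.88 and 3.4 CPM in the sham livers, and at 3.33, 3.02, 3.19, 4.23 and 5.31 CPM in the PHx quadriceps muscles, against 31.8, 26.6 and 22.9 CPM in the sham quadriceps muscles. The difference of Loxl2 was 5.79 ± 0.56 (edgeR, adjusted p 7.07e-07), and no left-out library altered its calls.

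The opposite pattern, down in liver and up in quadriceps, included Arrdc3, Adck3, Klf10 and Csrp3. Adck3 (also called Coq8a), a mitochondrial kinase-like protein of coenzyme Q synthesis, stood at 34.8, 29.4, 27.3, 22.4 and 30.7 CPM in the PHx livers, against 165, 166 and 125 CPM in the sham livers, and at 671, 1035, 817, 889 and 839 CPM in the PHx quadriceps muscles, against 261, 199 and 123 CPM in the sham quadriceps muscles. Its groups were separate in both tissues and it differed by -4.52 ± 0.73 (edgeR, adjusted p 6.21e-05). Klf10, a transcription factor known as an early TGF-beta response gene, stood at 27.8, 30.4, 16.7, 24 and 28.4 CPM in the PHx livers, against 80, 147 and 106 CPM in the sham livers, and at 91.2, 245, 147, 270 and 119 CPM in the PHx quadriceps muscles, against 38.5, 33.4 and 33.9 CPM in the sham quadriceps muscles. Its difference was -4.43 ± 0.65 (edgeR, adjusted p 2.21e-05), with every PHx liver below and every PHx muscle above the sham range.

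**Figure D3:**
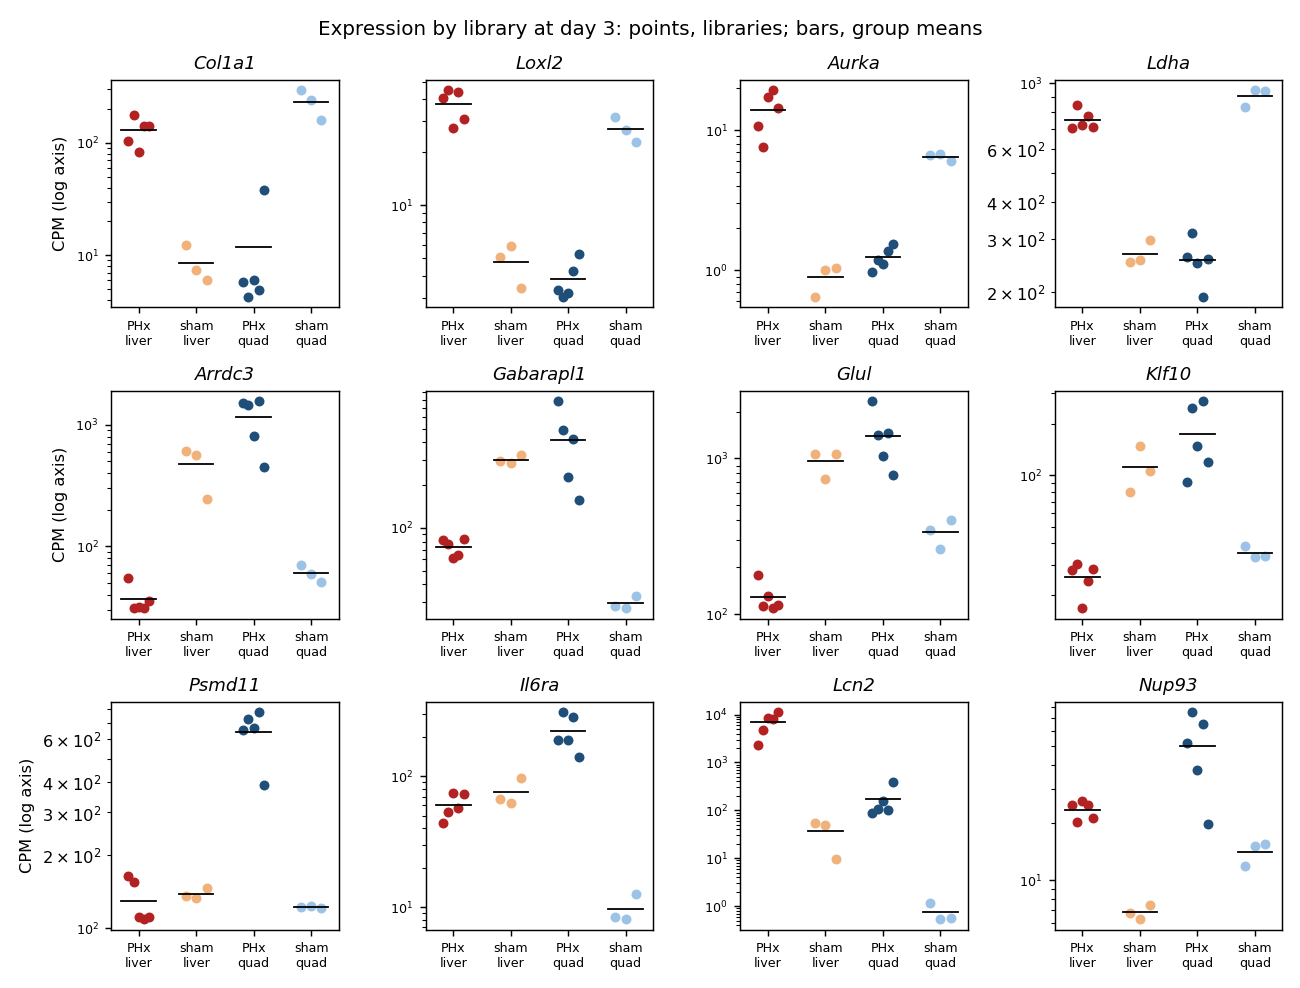
Expression of 12 genes in each library (CPM, log axis), with PHx left of sham for liver and then for quadriceps, points for libraries and bars for group means. Col1a1, Loxl2, Aurka and Ldha were higher in PHx than sham livers and lower in PHx than sham muscles, Arrdc3, Gabarapl1, Glul and Klf10 the reverse, Psmd11 and Il6ra were called in muscle and not in liver, and Lcn2 and Nup93 were higher in PHx libraries of both tissues.

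Most mitosis and DNA replication genes had a higher difference. Of 37 mitosis genes tested 35 had a higher difference, with a list median of 3.68 beside 0.04 over all genes, and 35 were up in liver against 1 up and 3 down in quadriceps. Between 28 and 35 of them passed when 1 library was left out. Of 43 DNA replication genes 30 were higher and 1 lower, with a median of 2.17, 35 up in liver, 5 up and 9 down in quadriceps and 7 opposite. The members that went the other way were Spc24, a kinetochore protein, with a difference of -2.01 ± 0.82 (edgeR, adjusted p 0.0444) that was lost without any 1 sham liver, among others, and Mcm10, a replication initiation factor, with -4.14 ± 1.22 (edgeR, adjusted p 0.00591); both are named after their values were seen.

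Aurka (chr2:172356190-172370570), the kinase of centrosomes and spindle poles, showed the contrast. It stood at 10.7, 7.57, 17.3, 19.3 and 14.4 CPM in the PHx livers, against 0.642, 0.995 and 1.04 CPM in the sham livers, and at 0.969, 1.19, 1.11, 1.36 and 1.54 CPM in the PHx quadriceps muscles, against 6.62, 6.8 and 6.01 CPM in the sham quadriceps muscles. Every PHx liver lay above and every PHx muscle below the sham libraries of its tissue. The difference was 6.34 ± 0.96 (edgeR, adjusted p 3.52e-05). Mki67, the proliferation marker Ki-67, stood at 109, 60.6, 140, 162 and 107 CPM in the PHx livers, against 7.67, 10.6 and 10.4 CPM in the sham livers, and at 0.666, 0.42, 0.354, 0.778 and 5.49 CPM in the PHx quadriceps muscles, against 2.19, 3.79 and 5.35 CPM in the sham quadriceps muscles. Muscle replicate 5 stood apart from the other PHx muscles, and the difference of Mki67 was 4.86 ± 1.27 (edgeR, adjusted p 0.00427), 6.37 without that library.

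Among replication genes, Mcm2, a subunit of the replicative helicase, stood at 15.7, 9.53, 43.1, 39.8 and 40 CPM in the PHx livers, against 2.75, 3.3 and 3.97 CPM in the sham livers, and at 1.45, 2.14, 1.42, 1.85 and 3.12 CPM in the PHx quadriceps muscles, against 7.11, 6.27 and 7.42 CPM in the sham quadriceps muscles. Its difference was 4.93 ± 0.75 (edgeR, adjusted p 3.27e-05), with separate groups in both tissues. Rrm1, the large subunit of ribonucleotide reductase that makes deoxynucleotides, differed by 3.85 ± 0.56 (edgeR, adjusted p 1.45e-05), with 26.3 to 69.7 CPM in the PHx livers, against 9.25 to 11 CPM in the sham livers, and 6.33 to 15.5 CPM in the PHx quadriceps muscles, against 19.9 to 28.6 CPM in the sham quadriceps muscles. Rfc3, a subunit of the clamp loader, differed by 2.86 ± 0.49 (edgeR, adjusted p 6.9e-05). Plk4, the kinase that starts centriole duplication, and Mad2l1, a spindle checkpoint protein, differed by 3.66 ± 0.60 and 3.59 ± 0.54 (edgeR, adjusted p 5.45e-05 and 1.94e-05).

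The promoters of these lists, and of the proteasome, autophagy, matrix and cholesterol lists, were searched for 8 sequence elements. Among these were the elements that the G1/S and G2/M activators are known to bind. The windows ran from 250 bases before to 50 after the start (RefSeq, GRCm38.p6; 9695 tested genes matched), and both strands were read. The cell cycle homology region core TTTGAA, bound by the MuvB complex, was in 21 of 29 mitosis promoters (72.4%), 5 of 35 DNA replication promoters (14.3%) and 11.3% of all. The NF-Y box CCAAT was in 22 of 29 (75.9%), 20 of 35 (57.1%) and 38.5%. The E2F elements TTTCCCGC and TTTGGCGC were in 8 (22.9%) and 6 (17.1%) of the 35 DNA replication promoters, beside 2.03% and 1.06% of all. Of the other elements searched, TGTTTAC was in 0 of 27 proteasome and 0 of 32 autophagy promoters, beside 2.41% of all. TTCNNNGAA (N, any base) was in 1 of 27 and 4 of 32, beside 7.02% of all. TGACNNNGC was in 6 of 27 and 3 of 32, beside 15.1%, and TCACGTG in 0 of 27 and 3 of 32, beside 6.19%. Capitals below mark TTTGAA or CCAAT, on either strand, in 2 mitosis promoters and the E2F elements in 2 replication promoters. They are at chr2:172370521-172370820 (Aurka, minus strand), chr6:125191537-125191836 (Ncapd2, minus), chr5:151651159-151651458 (Rfc3, minus) and chr1:20820263-20820562 (Mcm3, minus), each written 5′ to 3′ along the gene.
Aurka: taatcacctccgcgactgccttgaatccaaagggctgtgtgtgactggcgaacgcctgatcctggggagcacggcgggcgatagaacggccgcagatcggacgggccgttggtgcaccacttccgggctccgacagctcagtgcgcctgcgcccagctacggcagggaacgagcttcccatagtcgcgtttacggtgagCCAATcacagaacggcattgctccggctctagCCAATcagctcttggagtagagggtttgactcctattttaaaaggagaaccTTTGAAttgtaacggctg
Ncapd2: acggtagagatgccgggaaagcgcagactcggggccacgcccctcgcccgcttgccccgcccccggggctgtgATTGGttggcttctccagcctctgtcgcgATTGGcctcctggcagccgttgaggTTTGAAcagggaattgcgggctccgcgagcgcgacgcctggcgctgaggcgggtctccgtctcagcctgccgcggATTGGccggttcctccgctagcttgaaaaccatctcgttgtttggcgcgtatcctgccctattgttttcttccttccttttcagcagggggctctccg
Rfc3: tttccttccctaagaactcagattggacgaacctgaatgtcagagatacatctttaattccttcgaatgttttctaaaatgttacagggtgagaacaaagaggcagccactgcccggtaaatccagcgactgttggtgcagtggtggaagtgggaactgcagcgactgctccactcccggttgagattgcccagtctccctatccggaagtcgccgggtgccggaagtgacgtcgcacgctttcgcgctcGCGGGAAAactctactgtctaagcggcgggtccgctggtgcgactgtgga
Mcm3: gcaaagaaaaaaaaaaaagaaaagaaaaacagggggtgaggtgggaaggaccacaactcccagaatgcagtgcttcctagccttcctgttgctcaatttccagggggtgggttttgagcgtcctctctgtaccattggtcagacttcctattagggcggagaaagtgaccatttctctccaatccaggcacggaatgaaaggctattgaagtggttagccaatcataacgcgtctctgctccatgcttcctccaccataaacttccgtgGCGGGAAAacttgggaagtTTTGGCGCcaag

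A match is a run of letters and was not tested as a binding site. Ncapd2, a condensin subunit that compacts mitotic chromosomes, had a difference of 3.01 ± 0.59 and Mcm3, another helicase subunit, of 3.11 ± 0.66 (edgeR, adjusted p 0.000277 and 0.000641). Both were picked, after their values were seen, for the elements in their promoters. Both rose in liver (2.38 ± 0.42 and 3.20 ± 0.46 on the log2 scale), and neither passed the test in quadriceps.

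The G1 genes were more mixed, with 11 of 21 higher and 2 lower, and 7 higher without sham quadriceps replicate 3. Ccnd1 (chr7:144929931-144939925), cyclin D1, stood at 138, 106, 325, 221 and 283 CPM in the PHx livers, against 61.8, 62.6 and 64.6 CPM in the sham livers, and at 1.27, 0.65, 0.759, 1.61 and 3.38 CPM in the PHx quadriceps muscles, against 11.6, 9.69 and 11.1 CPM in the sham quadriceps muscles. Its groups did not overlap in either tissue and its difference was 4.58 ± 0.85 (edgeR, adjusted p 0.000218). The liver call alone was lost when any 1 sham liver was left out, among others. Rbl1 (p107) and Rbl2 (p130), related pocket proteins that hold E2F genes in check, parted in opposite ways. Rbl1 had a called difference (edgeR, adjusted p 7.74e-05) from responses of 2.67 ± 0.47 in liver and -1.33 ± 0.48 in quadriceps, with 11.6 to 37.6 CPM in the PHx livers, against 3.28 to 4.84 CPM in the sham livers, and 1.99 to 4.34 CPM in the PHx quadriceps muscles, against 5.99 to 8.18 CPM in the sham quadriceps muscles. Rbl2 differed by -2.92 ± 0.50 (edgeR, adjusted p 8.25e-05), with 36.6 to 49.7 CPM in the PHx livers, against 72.9 to 75.9 CPM in the sham livers, and 180 to 493 CPM in the PHx quadriceps muscles, against 72.6 to 79.5 CPM in the sham quadriceps muscles.

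The p53 targets did not part as a group, with 4 of 22 higher, 4 lower and a median of -0.44. Sesn1, a stress-induced inhibitor of mTORC1, differed by -4.59 ± 0.92 (edgeR, adjusted p 0.000482) with 147 to 901 CPM in the PHx quadriceps muscles, against 21.3 to 27.6 CPM in the sham quadriceps muscles, while the PHx livers lay below the sham livers without a call, at 11.7 to 15.5 CPM in the PHx livers, against 17.2 to 19.8 CPM in the sham livers. Polk, a translesion polymerase, differed by 3.15 ± 0.60 (edgeR, adjusted p 0.000212) through a fall in muscle. Cdkn1a, which encodes the p21 inhibitor of cyclin-dependent kinases, rose in both tissues, and its values stand with the shared genes.

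**Figure D4:**
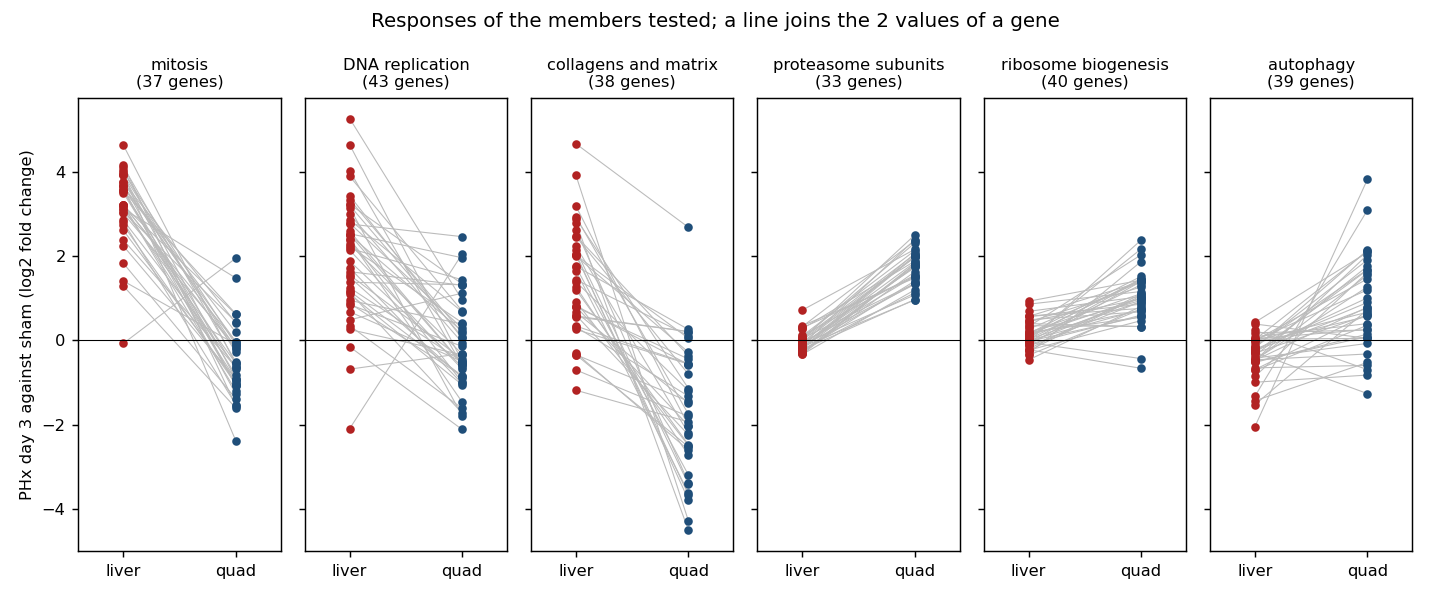
Response of each tested member (vertical axis, log2 fold change of PHx against sham) in liver (left) and quadriceps (right) for 6 gene lists, with a line joining the values of 1 gene. Mitosis, DNA replication and matrix genes mostly slope down from liver to quadriceps, and all 33 proteasome subunits slope up, with none called in liver.

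Extracellular matrix genes were also mostly higher. Of 38 collagens, basement membrane and matrix genes 32 were higher and 0 lower, with a median of 2.69, 22 up in liver, 26 down in quadriceps and 14 opposite. Between 28 and 32 were higher with 1 library left out. Of 30 crosslinking enzymes, proteases and their inhibitors 18 were higher and 0 lower, with a median of 1.88. Stellate cell and fibroblast markers, which include the fibrillar collagens, summed to 629 to 1059 CPM in PHx livers against 393 to 535 CPM in sham livers, and to 2634 to 3057 CPM in PHx quadriceps against 2900 to 3044 CPM in sham quadriceps. Des and Dcn made up 84.3% to 90.6% of that sum in PHx quadriceps and 62% to 65.7% in sham quadriceps. Of 15 tested markers 9 were up (5 without sham liver replicate 3) and 0 down in liver, and 1 was up and 7 down in quadriceps. The median log2 fold change was 1.44 in liver and -1.09 in quadriceps. In the difference 9 were higher and 1 lower. The part of cell numbers was not tested.

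Within the matrix, Col5a1, which nucleates collagen fibrils, stood at 38.5, 55.5, 27.8, 45.9 and 41.4 CPM in the PHx livers, against 9.71, 9.36 and 9.41 CPM in the sham livers, and at 5.75, 3.29, 6.48, 4.96 and 10.2 CPM in the PHx quadriceps muscles, against 60.9, 70.3 and 64.4 CPM in the sham quadriceps muscles. It differed by 5.54 ± 0.66 (edgeR, adjusted p 1.93e-06). Col6a1 and Col6a2, chains of the microfibrillar collagen around muscle fibres, rose by 1.74 and 2.02 on the log2 scale in liver and fell by 3.19 and 3.66 in quadriceps, with differences of 4.93 ± 0.55 and 5.68 ± 0.67 (edgeR, adjusted p 1.06e-06 and 1.89e-06). Col4a1, a chain of basement membrane collagen, rose in liver, with 204 to 313 CPM in the PHx livers, against 40.1 to 46.8 CPM in the sham livers, and overlapped in muscle at 119 to 168 CPM in the PHx quadriceps muscles, against 151 to 220 CPM in the sham quadriceps muscles, and differed by 2.84 ± 0.41 (edgeR, adjusted p 1.15e-05).

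Among the enzymes, Plat, the tissue plasminogen activator, stood at 12.3, 10.8, 13.2, 16.7 and 13.7 CPM in the PHx livers, against 0.428, 0.769 and 0.28 CPM in the sham livers, and at 2.3, 1.45, 1.72, 1.02 and 2.24 CPM in the PHx quadriceps muscles, against 4.21, 4.36 and 6.19 CPM in the sham quadriceps muscles. It differed by 6.26 ± 1.03 (edgeR, adjusted p 6.74e-05), and every PHx muscle lay below the sham muscles although the muscle response alone missed the threshold (adjusted p 0.0649). Loxl1, a lysyl oxidase of elastic fibres, differed by 3.60 ± 0.54 (edgeR, adjusted p 1.99e-05). Pdgfra, a receptor of fibroblasts and stellate cells, differed by 2.82 ± 0.43 (edgeR, adjusted p 2.3e-05), with 27.1 to 61.2 CPM in the PHx livers, against 8.41 to 9.36 CPM in the sham livers and overlapping muscles.

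Proteasome subunits gave the reverse picture in every member. All 33 tested subunits had a lower difference, with a median of -1.92; all 33 were up in quadriceps and 0 were called in liver. The count was 33 with every library left out in turn. Psmd11 (chr11:80428615-80472133), a lid subunit of the regulatory particle that promotes assembly of the complete proteasome, stood at 164, 155, 111, 109 and 111 CPM in the PHx livers, against 136, 134 and 147 CPM in the sham livers, and at 657, 725, 665, 774 and 388 CPM in the PHx quadriceps muscles, against 123, 124 and 121 CPM in the sham quadriceps muscles. The livers overlapped and the PHx muscles lay above the sham muscles throughout, replicate 5 least so. Its difference was -2.48 ± 0.45 (edgeR, adjusted p 0.000137). Psma4, Psmb1 and Psmb7, subunits of the core particle, differed by -2.15 ± 0.31, -1.92 ± 0.30 and -1.66 ± 0.27 (edgeR, adjusted p 1.11e-05, 2.3e-05 and 4e-05).

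The enzymes that feed the proteasome moved less uniformly. Of 28 genes for ubiquitin and its conjugating enzymes 13 were lower and 2 higher, with a median of -0.48. Usp14, the deubiquitinase on the regulatory particle, stood at 100 to 194 CPM in the PHx quadriceps muscles, against 58.7 to 62.9 CPM in the sham quadriceps muscles, and differed by -1.69 ± 0.35 (edgeR, adjusted p 0.000389). Ube2l3, the conjugating enzyme of parkin and HOIP, moved in opposite directions with a difference of -1.02 ± 0.19 (edgeR, adjusted p 0.00012). Ube2z, which takes ubiquitin from the activating enzyme UBA6, differed by -1.36 ± 0.24 (edgeR, adjusted p 0.000108) through muscle.

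Among 18 ubiquitin ligases tied to muscle wasting 8 were lower and 1 higher. Fbxo32 (chr15:58175879-58214892) stood at 9572, 10286, 7087, 8761 and 3452 CPM in the PHx quadriceps muscles, against 281, 313 and 287 CPM in the sham quadriceps muscles, while livers held 6.3, 9.17, 4.49, 5 and 5.85 CPM in the PHx livers, against 10.8, 13.9 and 9.85 CPM in the sham livers. Over its sham and PHx libraries together, the liver level of Fbxo32 was under 1% of its muscle level. Its difference was -5.64 ± 0.93 (edgeR, adjusted p 9.94e-05). Muscle transcripts scaled to Acta1 would give 105% of the sham liver level of Fbxo32 and 697% of that of Trim63. Trim63 stood at 5003, 4396, 2193, 3163 and 1060 CPM in the PHx quadriceps muscles, against 84.1, 75 and 80.9 CPM in the sham quadriceps muscles, and in liver at 0 to 0.459 CPM in PHx and 0.401 to 0.963 CPM in sham, under 1% of its muscle level. The difference of Trim63 was -7.33 ± 1.46 (edgeR, adjusted p 0.000351), with a muscle response of 5.31 ± 0.83, and -8.21 without PHx liver replicate 1. The rest of that difference lay in the liver levels near 0. Without genes under 1% of the other tissue, Fbxo32 and Trim63 among them, 5 ligases were lower. Fbxo31, a substrate receptor that degrades cyclin D1, differed by -3.50 ± 0.52 (edgeR, adjusted p 2.18e-05) with 463 to 613 CPM in the PHx quadriceps muscles, against 64.6 to 74.6 CPM in the sham quadriceps muscles. Ubr2, a ligase of the N-degron pathway, differed by -2.06 ± 0.36 (edgeR, adjusted p 9.72e-05).

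Autophagy genes were also mostly lower. Of 39 tested 25 were lower and 1 higher, with a median of -1.11, 24 up and 3 down in quadriceps, 9 down in liver (5 without sham liver replicate 3) and 5 opposite. Between 22 and 25 were lower with 1 library left out. Gabarapl1 (chr6:129533192-129542331), an ATG8 protein of the autophagosome membrane, stood at 82.4, 77, 61.2, 64.5 and 84.1 CPM in the PHx livers, against 297, 287 and 325 CPM in the sham livers, and at 781, 493, 229, 426 and 157 CPM in the PHx quadriceps muscles, against 28.3, 27.2 and 33.1 CPM in the sham quadriceps muscles. Both tissues were fully separated, in opposite directions, and it differed by -5.86 ± 0.82 (edgeR, adjusted p 1.7e-05). Bnip3, a mitophagy receptor, stood at 76.4 to 123 CPM in the PHx livers, against 236 to 243 CPM in the sham livers. It stood at 843 to 2650 CPM in the PHx quadriceps muscles, against 180 to 228 CPM in the sham quadriceps muscles. Its difference was -4.41 ± 0.68 (edgeR, adjusted p 3.87e-05), and its liver call was lost without any 1 sham liver, among others. Sqstm1, the p62 cargo receptor, differed by -2.32 ± 0.53 (edgeR, adjusted p 0.00124) through muscle, with 757 to 1907 CPM in the PHx quadriceps muscles, against 334 to 360 CPM in the sham quadriceps muscles. Atg14, which directs the class III PI3-kinase to the phagophore, differed by -2.26 ± 0.36 (edgeR, adjusted p 3.16e-05).

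Lysosomal genes were mixed, with 11 of 32 lower and 5 higher. Atp6v1h, a subunit of the proton pump, differed by -2.45 ± 0.46 (edgeR, adjusted p 0.000196) with 67.2 to 96.3 CPM in the PHx quadriceps muscles, against 13.6 to 17.1 CPM in the sham quadriceps muscles. Lamp2, a membrane protein needed for autophagosome fusion, differed by -1.78 ± 0.29 (edgeR, adjusted p 3.91e-05). Ctsc, a cathepsin that activates granule proteases, went the other way with 2.08 ± 0.34 (edgeR, adjusted p 3.95e-05), from a muscle response of -1.71 ± 0.24.

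Most genes for making ribosomes rose in muscle and had no call in liver. Of 40 ribosome biogenesis genes 36 were up and 0 down in quadriceps, 3 were up and 0 down in liver, and 21 had a lower difference (17 to 23 with 1 library left out; median -0.86). Utp14a (chrX:48256934-48282449), of the small-subunit processome, stood at 13.7, 11.3, 11.8, 11.2 and 11.1 CPM in the PHx livers, against 16.1, 15.1 and 12.9 CPM in the sham livers, and at 32.7, 31.1, 30.9, 31.1 and 23.8 CPM in the PHx quadriceps muscles, against 8.51, 8.06 and 7.95 CPM in the sham quadriceps muscles. It differed by -2.19 ± 0.27 (edgeR, adjusted p 1.93e-06). Nop14, another processome factor, and Nop10, a core protein of box H/ACA particles, differed by -2.15 ± 0.39 and -1.30 ± 0.25 (edgeR, adjusted p 0.000126 and 0.000222).

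Of 20 cytosolic aminoacyl-tRNA synthetases 9 were lower and 0 higher, with 13 up in quadriceps (8 without sham quadriceps replicate 2 or 3, or PHx quadriceps replicate 4). Dars and Tars, which charge aspartate and threonine tRNAs, moved in opposite directions, with differences of -1.06 ± 0.22 and -1.40 ± 0.32 (edgeR, adjusted p 0.000455 and 0.00104). The liver call of Dars was lost without sham liver replicate 1, and the muscle call of Tars without any 1 sham muscle, among others. Mars, the methionyl enzyme, differed by -1.58 ± 0.38 (edgeR, adjusted p 0.00162). Among 32 genes of the unfolded protein and integrated stress responses 12 were lower and 1 higher. Ern1, the IRE1 sensor, stood at 29 to 50.5 CPM in the PHx livers, against 88.4 to 105 CPM in the sham livers, and 24.9 to 48 CPM in the PHx quadriceps muscles, against 11.9 to 13.9 CPM in the sham quadriceps muscles, with a difference of -2.60 ± 0.51 (edgeR, adjusted p 0.000274). Atf6 and Herpud1 also moved in opposite directions, with differences of -2.08 ± 0.32 and -3.07 ± 0.56 (edgeR, adjusted p 2.5e-05 and 0.000152). The liver call of Atf6 was lost without sham liver replicate 2 or 3, and that of Herpud1 without any 1 sham liver, among others. The exception, named after its value was seen, was Asns, the asparagine synthetase induced by ATF4, with 3.76 ± 0.79 (edgeR, adjusted p 0.000658) from a liver response of 3.11 ± 0.56. Hspa5, the chaperone BiP, was called up in muscle and not in liver, and its difference of -0.64 ± 0.41 did not pass (edgeR, adjusted p 0.209).

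Of 21 cytosolic heat shock chaperones 9 were lower and 0 higher. Bag3, a co-chaperone of selective autophagy in muscle, stood at 246 to 518 CPM in the PHx quadriceps muscles, against 90.1 to 117 CPM in the sham quadriceps muscles, and differed by -1.85 ± 0.42 (edgeR, adjusted p 0.00104). Hsp90ab1, the constitutive HSP90, differed by -1.77 ± 0.37 (edgeR, adjusted p 0.000521). Hspa4, an HSP110 exchange factor, moved in opposite directions by little, with a difference of -0.97 ± 0.20 (edgeR, adjusted p 0.000362). The liver call of Hspa4 was lost without any 1 sham liver, among others.

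Glucocorticoid receptor targets were more often up in muscle. Of 35 tested, the receptor included, 19 were lower and 2 higher, with a median of -1.78; 25 were up in quadriceps and 9 in liver. Fkbp5 (chr17:28398753-28486149), a chaperone of steroid receptors and a standard readout of glucocorticoid action, rose in both tissues. It stood at 89.9, 114, 143, 128 and 155 CPM in the PHx livers, against 42.9, 31 and 26.5 CPM in the sham livers, and at 302, 437, 373, 358 and 296 CPM in the PHx quadriceps muscles, against 18.3, 19.7 and 20.2 CPM in the sham quadriceps muscles. The muscle response was 4.19 ± 0.56 and the liver response 1.91 ± 0.56, and the difference of -2.27 ± 0.79 (edgeR, adjusted p 0.0231) was lost without sham liver replicate 1 (0.0587) and the liver call without sham liver replicate 2 or 3. Tsc22d3, the glucocorticoid-induced leucine zipper, stood at 22.5 to 44.9 CPM in the PHx livers, against 41 to 42.7 CPM in the sham livers, and 229 to 548 CPM in the PHx quadriceps muscles, against 106 to 133 CPM in the sham quadriceps muscles, with a difference of -2.04 ± 0.52 (edgeR, adjusted p 0.00304). Glul, glutamine synthetase, stood at 179, 113, 131, 109 and 114 CPM in the PHx livers, against 1065, 732 and 1069 CPM in the sham livers, and at 2329, 1411, 1030, 1461 and 777 CPM in the PHx quadriceps muscles, against 349, 263 and 400 CPM in the sham quadriceps muscles. It moved in opposite directions and differed by -4.94 ± 0.76 (edgeR, adjusted p 4.11e-05).

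Cebpd, a C/EBP factor of the acute phase, and Ddit4, the mTORC1 inhibitor REDD1, rose in both tissues and more in muscle. Cebpd stood at 18 to 27.4 CPM in the PHx livers, against 3.8 to 5.41 CPM in the sham livers. It stood at 136 to 823 CPM in the PHx quadriceps muscles, against 10.8 to 14.1 CPM in the sham quadriceps muscles. Its difference was -3.08 ± 1.04 (edgeR, adjusted p 0.0209), and its liver call was lost without any 1 sham liver, among others. Ddit4 differed by -3.12 ± 1.20 (edgeR, adjusted p 0.0395), a call lost without most single libraries, any 1 sham library of either tissue among them.

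The IL-6 and NF-kB list had 10 of 36 members lower and 3 higher, beside 21.3% and 20.3% over all genes. Il6ra (chr3:89869324-89913162), the IL-6 binding receptor chain, stood at 43.8, 53.1, 75, 57.4 and 73.4 CPM in the PHx livers, against 66.5, 62.5 and 96.6 CPM in the sham livers, and at 188, 308, 189, 282 and 140 CPM in the PHx quadriceps muscles, against 8.34, 8.06 and 12.5 CPM in the sham quadriceps muscles. The livers overlapped and the muscles were far apart, with a difference of -4.83 ± 0.72 (edgeR, adjusted p 2.62e-05). Rela, the p65 subunit of NF-kB, differed by -1.52 ± 0.29 (edgeR, adjusted p 0.000169) through muscle. Tnfaip3, the A20 feedback inhibitor, differed by 3.65 ± 0.90 (edgeR, adjusted p 0.00254) through liver, with 10.4 to 42.8 CPM in the PHx livers, against 3.2 to 3.93 CPM in the sham livers. Stat3 had a difference of -0.62 ± 0.30 and Socs3, its feedback inhibitor, of 1.57 ± 1.08 (edgeR, adjusted p 0.0992 and 0.251), neither of which passed, although Stat3 did without PHx liver replicate 2 (0.0386).

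Of 25 acute phase genes 14 were up in liver and 13 in quadriceps, and the list median of the difference was -0.02, with 5 higher and 2 lower. Once genes under 1% of the other tissue were left out, 8 were up in liver and 5 in quadriceps, with 2 higher and 0 lower. Hepatocyte markers were up in PHx quadriceps for 12 of 16 with all genes kept, and for 0 once genes under 1% were left out. The part of hepatocyte transcripts in the muscle counts was not tested. C3, the central complement protein, stood at 11035 to 32315 CPM in the PHx livers, against 9400 to 10853 CPM in the sham livers, and 29.4 to 104 CPM in the PHx quadriceps muscles, against 165 to 424 CPM in the sham quadriceps muscles, a difference of 3.16 ± 0.74 (edgeR, adjusted p 0.00158). Cp, the copper carrier ceruloplasmin, was called up in liver and not in muscle and differed by 2.14 ± 0.57 (edgeR, adjusted p 0.00409). Both stood in muscle at under 1% of their liver level. Cd14, the lipopolysaccharide co-receptor of macrophages, differed by 4.97 ± 1.32 (edgeR, adjusted p 0.00499), with 52.1 to 168 CPM in the PHx livers, against 1.76 to 2.96 CPM in the sham livers and overlapping muscles, and by 4.25 without sham quadriceps replicate 3. Macrophage and monocyte markers summed to 627 to 1169 CPM in PHx livers against 358 to 490 CPM in sham livers, and to 155 to 398 CPM in PHx quadriceps against 119 to 205 CPM in sham quadriceps. The part of those cells was not tested.

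Interferon response genes fell in both tissues where they were called, 7 of 40 in liver and 20 in quadriceps, with 0 up in either. Without sham quadriceps replicate 3 the count in muscle was 7, while the count in liver ran between 3, without sham liver replicate 1 or 3, and 14, without PHx liver replicate 1. Nlrc5 and Psmb9 had a called difference; Nlrc5, the activator of MHC class I genes, was lost without sham quadriceps replicate 3 (edgeR, adjusted p 0.0828), and Psmb9, an immunoproteasome subunit, without most single libraries.

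Insulin and growth factor signalling genes were more often lower than higher in the difference. Of 35 genes 16 were lower and 5 higher, with a median of -0.75. Foxo1 (chr3:52268337-52350109), the FOXO factor that insulin restrains, stood at 86, 80.5, 80.1, 66.1 and 97.2 CPM in the PHx livers, against 96, 89.4 and 108 CPM in the sham livers, and at 304, 447, 309, 430 and 235 CPM in the PHx quadriceps muscles, against 42.7, 40.4 and 49.8 CPM in the sham quadriceps muscles. It differed by -3.22 ± 0.64 (edgeR, adjusted p 0.000362), with overlapping livers. Foxo3 moved in opposite directions, with 30.3 to 41.1 CPM in the PHx livers, against 63.2 to 69.4 CPM in the sham livers. It stood at 69 to 108 CPM in the PHx quadriceps muscles, against 21.8 to 24.2 CPM in the sham quadriceps muscles. Foxo3 differed by -2.91 ± 0.50 (edgeR, adjusted p 7.76e-05), and its liver call was lost without any 1 sham liver, among others. Insr, the insulin receptor, and Tsc1, a brake on mTORC1, differed by -1.99 ± 0.33 and -1.89 ± 0.24 (edgeR, adjusted p 5.18e-05 and 1.88e-06). Igf1, the growth hormone target that liver secretes, was lower in PHx than sham muscles, with 16.3 to 36.7 CPM in the PHx quadriceps muscles, against 70 to 147 CPM in the sham quadriceps muscles. Its difference of 1.53 ± 0.61 (edgeR, adjusted p 0.0448) was lost without most single libraries, any 1 sham liver and sham quadriceps replicate 3 among them. Igfbp1 rose in liver by 3.44 ± 0.84, with 264 to 1009 CPM in the PHx livers, against 30.4 to 69.8 CPM in the sham livers, a call lost without sham liver replicate 3 (adjusted p 0.0637), and stood near 0 in muscle at 0 to 0.727 CPM in the PHx quadriceps muscles, against 0 to 0.0815 CPM in the sham quadriceps muscles.

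YAP is the transcriptional coactivator named in the study's title. Yap1 itself had a difference of -0.74 ± 0.31 that did not pass (edgeR, adjusted p 0.0573), with 78.5 to 96.1 CPM in the PHx livers, against 75.3 to 88.6 CPM in the sham livers, and 62.8 to 111 CPM in the PHx quadriceps muscles, against 45.5 to 52.4 CPM in the sham quadriceps muscles, but did without PHx liver replicate 1 (0.0484) or PHx quadriceps replicate 5 (0.0294). Of 34 genes for YAP, TEAD factors and their targets 5 were higher and 1 lower, beside 20.3% and 21.3% over all genes. With all libraries of the comparison kept, other settings gave 5 to 10 higher and 1 to 7 lower. Ajuba, a LIM protein that restrains the LATS kinases, differed by 2.08 ± 0.48 (edgeR, adjusted p 0.00125), with 18.4 to 30.2 CPM in the PHx livers, against 5.01 to 5.38 CPM in the sham livers and overlapping muscles. Ctgf, a matricellular YAP target, rose in liver by 3.02 ± 0.61, and its difference of 1.83 ± 0.84 did not pass (edgeR, adjusted p 0.0823) except without sham quadriceps replicate 3 (0.0297).

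Among 30 myostatin, activin and TGF-beta genes 8 were higher and 6 lower, beside 20.3% and 21.3% over all genes. Smad4, the shared mediator, differed by -1.07 ± 0.23 (edgeR, adjusted p 0.000632) through muscle. Tgfb2, a ligand, and Ltbp2 and Ltbp3, latent binding proteins of the matrix, differed by 3.37 ± 0.91, 4.93 ± 1.09 and 1.85 ± 0.43 (edgeR, adjusted p 0.00461, 0.000888 and 0.00132). The liver calls of these 3 genes were lost without sham liver replicate 1 or 3, among others. The difference of Ltbp2 was 4.17 without sham quadriceps replicate 3 and 5.77 without PHx quadriceps replicate 5.

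Clock genes had 5 of 22 members lower and 1 higher, beside 21.3% lower and 20.3% higher over all genes. Nr1d1, the REV-ERB-alpha repressor, fell in liver, with 22.4 to 71.1 CPM in the PHx livers, against 186 to 307 CPM in the sham livers, and overlapped in muscle, with 107 to 273 CPM in the PHx quadriceps muscles, against 201 to 283 CPM in the sham quadriceps muscles, a difference of -2.13 ± 0.71 (edgeR, adjusted p 0.0188). Cry2 and Rora differed by -3.29 ± 0.61 and -1.69 ± 0.45 (edgeR, adjusted p 0.00018 and 0.00425) through muscle. The hour of collection is not given for any group, and its part was not tested.

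Metal and redox genes differed by member. Of 15 metallothionein and zinc transporter genes 5 were higher and 1 lower, and the 5 became 2 without sham liver replicate 2 or 3 or sham quadriceps replicate 2 or 3 (2 to 5 with any 1 library left out). Slc39a14 (chr14:70303467-70351424), the ZIP14 importer of zinc and iron, stood at 235, 370, 525, 525 and 434 CPM in the PHx livers, against 329, 280 and 334 CPM in the sham livers, and at 593, 1006, 518, 891 and 350 CPM in the PHx quadriceps muscles, against 16.1, 14.1 and 13.3 CPM in the sham quadriceps muscles. The muscles were fully apart and the livers overlapped, and the difference was -5.12 ± 1.08 (edgeR, adjusted p 0.000919). Of 31 NRF2 antioxidant genes 12 were lower and 4 higher, with a median of -0.80. Sod1, the cytosolic superoxide dismutase, and Cat, catalase of peroxisomes, fell in liver and rose in muscle, with differences of -2.34 ± 0.35 and -3.34 ± 0.60 (edgeR, adjusted p 1.45e-05 and 0.000139); the muscle call of Cat was lost without sham quadriceps replicate 1 or 2. Txn1, thioredoxin, differed by -2.27 ± 0.39 (edgeR, adjusted p 7.9e-05) through muscle.

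Cholesterol synthesis and uptake was the metabolic list most often higher, with 13 of 27 higher and 2 lower and a median of 1.12. In muscle 11 were down and 1 up, and 6 were down without sham quadriceps replicate 3. Insig2, which retains the SREBP complex in the endoplasmic reticulum, went up in liver. It stood at 857, 790, 437, 458 and 396 CPM in the PHx livers, against 73.8, 76.4 and 58.2 CPM in the sham livers, and in muscle at 20.6 to 28.6 CPM in the PHx quadriceps muscles, against 32.6 to 39.3 CPM in the sham quadriceps muscles, a difference of 3.57 ± 0.75 (edgeR, adjusted p 0.000645). Idi1, the isopentenyl isomerase, fell in muscle and differed by 2.14 ± 0.48 (edgeR, adjusted p 0.000946). Fdft1, squalene synthase, went against the list with -2.26 ± 0.50 (edgeR, adjusted p 0.000794), from a muscle response of 2.69 ± 0.35. The CCAAT box stood in 17 of 20 promoters of this list (85%), beside 38.5% of all.

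Of 28 fatty acid synthesis and storage genes 9 were down and 0 up in liver and 16 down and 5 up in quadriceps, with 6 higher and 4 lower differences. Acacb (chr5:114165518-114250758), the mitochondrial acetyl-CoA carboxylase whose product blocks entry of fatty acids, stood at 57.7, 43.4, 34.3, 31.3 and 35.7 CPM in the PHx livers, against 222, 252 and 215 CPM in the sham livers, and at 1331, 2314, 1715, 1674 and 1562 CPM in the PHx quadriceps muscles, against 476, 484 and 570 CPM in the sham quadriceps muscles. It moved in opposite directions and differed by -4.26 ± 0.50 (edgeR, adjusted p 1.36e-06). Lpin2, a phosphatidate phosphatase, differed by -3.39 ± 0.73 (edgeR, adjusted p 0.000786) through muscle. Scd2, a stearoyl-CoA desaturase, differed by 4.15 ± 0.94 (edgeR, adjusted p 0.00138). The PHx muscles all lay below the sham muscles, at 8.06 to 18.8 CPM in the PHx quadriceps muscles, against 44.1 to 98.5 CPM in the sham quadriceps muscles. Adipocyte markers summed to 363 to 823 CPM in PHx quadriceps against 1816 to 8185 CPM in sham quadriceps. Adipoq stood at 2.02 to 14 CPM in PHx quadriceps against 56.7 to 343 CPM in sham quadriceps. The part of adipocyte transcripts in the muscle falls of Scd2 and of this list was not tested.

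Fatty acid oxidation had 11 of 34 genes lower and 0 higher, and 7 lower without sham liver replicate 2 or sham quadriceps replicate 2. Ucp3, the uncoupling protein of muscle, rose in muscle with 256 to 822 CPM in the PHx quadriceps muscles, against 58.3 to 65.6 CPM in the sham quadriceps muscles, and stood in liver below 1% of that level. Pdk4, the kinase that closes pyruvate dehydrogenase, stood at 572, 269, 39.6, 58.7 and 72.4 CPM in the PHx livers, against 20, 33.4 and 8.73 CPM in the sham livers, and at 13487, 11814, 5496, 9565 and 4792 CPM in the PHx quadriceps muscles, against 362, 330 and 344 CPM in the sham quadriceps muscles. All PHx libraries lay above the sham libraries of their tissue, but the spread among PHx livers was wide and the liver response missed the threshold (adjusted p 0.0599), as did the difference of -1.42 ± 1.57 (edgeR, adjusted p 0.491). Muscle transcripts scaled to Acta1 would give 67.4% of the Pdk4 level of the sham livers.

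Of 43 respiratory chain subunits 3 were higher and 1 lower, with a median of -0.02. Glucose use had 10 of 40 higher and 8 lower, beside 20.3% and 21.3% over all genes. Ldha (chr7:46845804-46855627), the lactate dehydrogenase chain of glycolytic tissue, stood at 708, 842, 723, 777 and 713 CPM in the PHx livers, against 251, 256 and 298 CPM in the sham livers, and at 261, 315, 250, 192 and 258 CPM in the PHx quadriceps muscles, against 833, 947 and 937 CPM in the sham quadriceps muscles. Its groups were separate in both tissues in opposite directions, and it differed by 3.32 ± 0.47 (edgeR, adjusted p 1.1e-05). The glycogen enzymes Gbe1, which branches the chain, and Ugp2, which makes UDP-glucose, went the opposite way, with differences of -3.29 ± 0.46 and -2.47 ± 0.37 (edgeR, adjusted p 1.04e-05 and 1.69e-05). Ugp2 stood at 136 to 208 CPM in the PHx livers, against 339 to 375 CPM in the sham livers, and 547 to 1384 CPM in the PHx quadriceps muscles, against 347 to 422 CPM in the sham quadriceps muscles.

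Among mitochondrial regulators 6 of 25 were lower and 3 higher, beside 21.3% and 20.3% over all genes. Gabpa, a subunit of nuclear respiratory factor 2, and Sirt1, a deacetylase that activates PGC-1-alpha, moved in opposite directions. Their differences were -1.66 ± 0.30 and -1.56 ± 0.28 (edgeR, adjusted p 9.94e-05 and 0.000129). The liver call of Sirt1 was lost without sham liver replicate 2 or 3, among others. Ppargc1a, PGC-1-alpha itself, rose in liver with 53.7 to 108 CPM in the PHx livers, against 13.7 to 23.5 CPM in the sham livers, and its difference of 2.12 ± 0.82 (edgeR, adjusted p 0.0399) was lost without sham liver replicate 1 or 3, among others. Amino acid transporters had 6 of 26 higher and 4 lower, beside 20.3% and 21.3% over all genes. Slc25a15, the ornithine carrier of the urea cycle, stood at 381 to 698 CPM in the PHx livers, against 325 to 334 CPM in the sham livers, and 3.63 to 7.9 CPM in the PHx quadriceps muscles, against 15.1 to 16.6 CPM in the sham quadriceps muscles, a difference of 2.28 ± 0.33 (edgeR, adjusted p 1.04e-05). Slc6a8, the creatine transporter, was called up in liver and not in muscle, with 22.8 to 25.4 CPM in the PHx livers, against 6.07 to 8.5 CPM in the sham livers, and a difference of 1.80 ± 0.38 (edgeR, adjusted p 0.000498).

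Of the 1406 genes called in both tissues, 720 changed in the same direction and 686 in opposite directions. By the stricter rule that the interval of the difference lie within 1 log2 unit of 0, 230 changed alike. The alike genes with the largest shared rise held a nuclear pore protein, a lactate carrier, a sulfhydryl oxidase, an integrin, a vault protein and a TGF-beta receptor. Nup93 (chr8:94214601-94315066), a scaffold of the nuclear pore, stood at 24.6, 20.2, 26, 24.6 and 21.1 CPM in the PHx livers, against 6.71, 6.24 and 7.41 CPM in the sham livers, and at 52, 75.2, 37.5, 65.5 and 19.7 CPM in the PHx quadriceps muscles, against 11.9, 15 and 15.4 CPM in the sham quadriceps muscles. Its responses were 1.78 ± 0.31 in liver and 1.82 ± 0.31 in quadriceps (edgeR, adjusted p 0.000266 and 7.02e-05), and the 95% interval of their difference was -0.95 to 0.85. Slc16a1, the lactate and ketone transporter MCT1, stood at 185, 168, 125, 140 and 129 CPM in the PHx livers, against 50.3, 58 and 44.5 CPM in the sham livers, and at 65.5, 110, 85.3, 74.4 and 61 CPM in the PHx quadriceps muscles, against 34.4, 24 and 21.8 CPM in the sham quadriceps muscles. It rose by 1.55 ± 0.26 and 1.57 ± 0.26, with an interval of -0.75 to 0.73.

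Qsox1, which forms disulfide bonds in secreted proteins, rose by 1.53 ± 0.27 in liver and 1.52 ± 0.28 in quadriceps. Itga5, the fibronectin receptor alpha chain, rose by 1.24 ± 0.30 and 1.26 ± 0.31. Mvp, the major vault protein, rose by 1.16 ± 0.21 and 1.21 ± 0.21, and Tgfbr2, the type II TGF-beta receptor, by 1.04 ± 0.29 and 1.04 ± 0.29. In all of these genes every PHx library lay above every sham library of its tissue. Tgfbr2 stood at 125 to 148 CPM in the PHx livers, against 65.7 to 66.7 CPM in the sham livers, and 107 to 159 CPM in the PHx quadriceps muscles, against 59 to 69 CPM in the sham quadriceps muscles.

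The largest shared falls were in Dlc1, a RhoGAP, Ptms (parathymosin), Lrp4, an agrin receptor of the neuromuscular junction, C1s1, a complement protease, Idh1, the cytosolic isocitrate dehydrogenase, and Ppp2r5a, a regulatory subunit of protein phosphatase 2A. Dlc1 (chr8:36567739-36952442) stood at 48.1, 33.8, 41.6, 31.5 and 42.9 CPM in the PHx livers, against 89.7, 109 and 94.4 CPM in the sham livers, and at 27, 26.7, 27.6, 26.5 and 35.2 CPM in the PHx quadriceps muscles, against 53.9, 59.4 and 99.1 CPM in the sham quadriceps muscles. It fell by 1.30 in liver and 1.31 in quadriceps on the log2 scale (edgeR, adjusted p 0.000138 and 5.04e-05), with an interval of the difference of -0.68 to 0.69. Lrp4 stood at 21.3 to 31.4 CPM in the PHx livers, against 52.3 to 76.8 CPM in the sham livers, and 3.94 to 11.3 CPM in the PHx quadriceps muscles, against 13.8 to 18.3 CPM in the sham quadriceps muscles. Ptms, Lrp4, C1s1 and Ppp2r5a had separate groups in both tissues. Idh1 overlapped in muscle, where sham replicate 3 stood highest, and its muscle call was lost without that library (adjusted p 0.121).

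**Figure D5:**
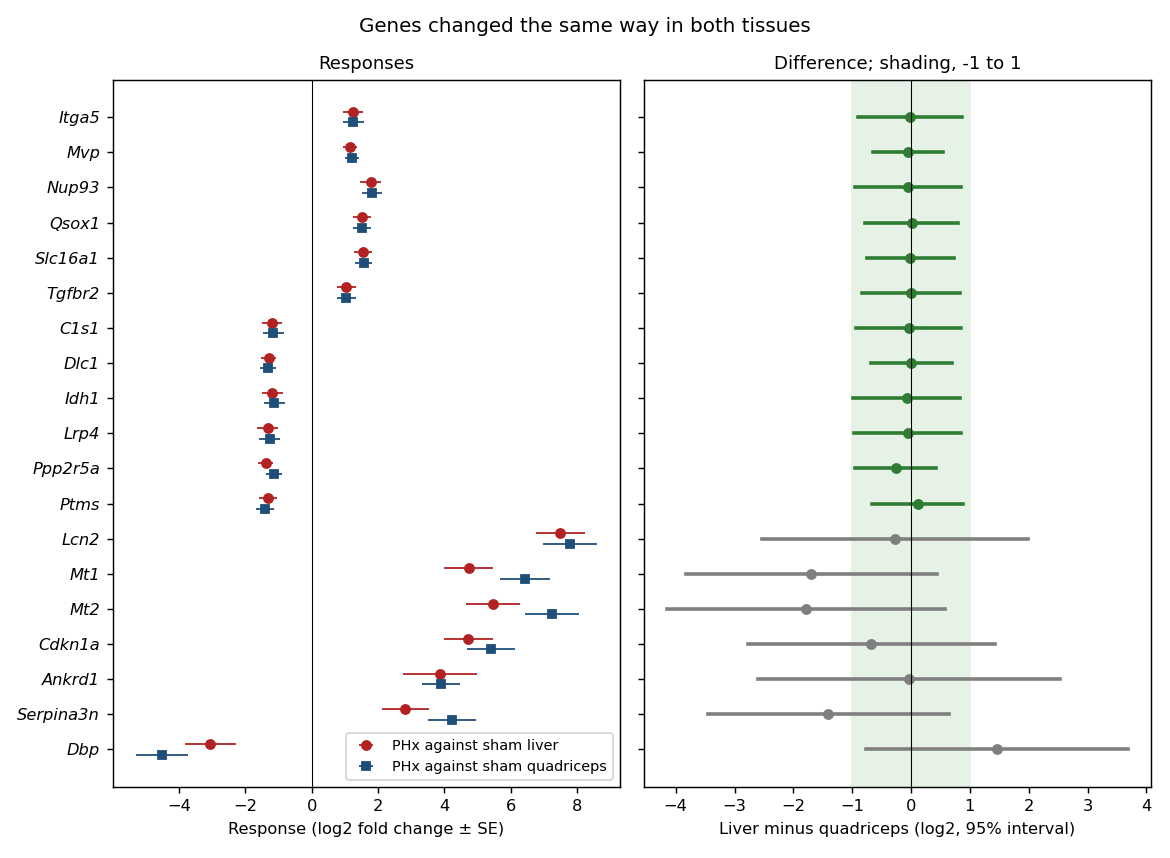
Liver and quadriceps responses of 19 genes changed the same way in both tissues (left panel, log2 fold change ± SE) and their liver minus quadriceps difference with its 95% interval (right panel, log2). The 12 alike genes have intervals inside the shaded range of -1 to 1, and the 7 genes below them have intervals that reach outside it.

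The largest shared responses could not be called alike, because their intervals were too wide. Of the 675 genes with the same direction and no called difference, 450 were in this position. Lcn2 (chr2:32384637-32387739), the iron-binding acute phase protein lipocalin 2, stood at 2313, 4644, 8302, 8057 and 11088 CPM in the PHx livers, against 55.3, 48.8 and 9.61 CPM in the sham livers, and at 89.2 to 389 CPM in the PHx quadriceps muscles, against 0.529 to 1.18 CPM in the sham quadriceps muscles. The PHx libraries were far above the sham libraries in both tissues. The responses were 7.50 ± 0.74 in liver and 7.78 ± 0.82 in quadriceps (edgeR, adjusted p 1.19e-05 and 5.75e-06), and the interval of the difference was -2.53 to 1.98. Lcn2 is also in the neutrophil marker list, whose other tested members include Csf3r at 5.93 to 16.1 CPM in the PHx livers, against 2.16 to 2.82 CPM in the sham livers, and 0.606 to 1.32 CPM in the PHx quadriceps muscles, against 0.574 to 0.79 CPM in the sham quadriceps muscles.

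Mt1 and Mt2, the zinc- and copper-binding metallothioneins, were higher in every PHx library than in any sham library of the same tissue. Mt2 stood at 591, 1536, 1697, 1820 and 1398 CPM in the PHx livers, against 28.9, 33.5 and 32.8 CPM in the sham livers, and at 656, 1490, 1683, 1504 and 1084 CPM in the PHx quadriceps muscles, against 7.94, 10.2 and 7.03 CPM in the sham quadriceps muscles. Its responses were 5.47 ± 0.82 and 7.25 ± 0.82, and the difference of -1.78 ± 1.16 did not pass (edgeR, adjusted p 0.222). Mt1 stood at 1249 to 3471 CPM in the PHx livers, against 83.3 to 138 CPM in the sham livers, and 1079 to 2451 CPM in the PHx quadriceps muscles, against 18.4 to 29 CPM in the sham quadriceps muscles, with a difference of -1.70 ± 1.05 (edgeR, adjusted p 0.198). Cdkn1a (chr17:29090986-29100722) stood at 65.5, 47, 65.1, 64.7 and 51 CPM in the PHx livers, against 2.96, 2.31 and 1.36 CPM in the sham livers, and at 305, 299, 215, 264 and 114 CPM in the PHx quadriceps muscles, against 7.72, 4.89 and 4.33 CPM in the sham quadriceps muscles. It rose by 4.72 ± 0.74 in liver and 5.41 ± 0.72 in quadriceps, with an interval of -2.78 to 1.42.

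Serpina3n, a secreted protease inhibitor of the acute phase, stood at 1558 to 6950 CPM in the PHx livers, against 607 to 646 CPM in the sham livers, and 51.7 to 628 CPM in the PHx quadriceps muscles, against 4.74 to 27.5 CPM in the sham quadriceps muscles, and its difference of -1.41 ± 1.01 did not pass (edgeR, adjusted p 0.264). Ankrd1, a stretch-induced muscle ankyrin protein and YAP target, rose by 3.86 ± 1.12 in liver and 3.91 ± 0.57 in quadriceps, but muscle transcripts scaled to Acta1 would give 83.7% of its sham liver level. Dbp, the clock output factor, was the counterpart that fell. It stood at 8.67 to 21.8 CPM in the PHx livers, against 118 to 138 CPM in the sham livers, and 2.14 to 11 CPM in the PHx quadriceps muscles, against 104 to 124 CPM in the sham quadriceps muscles, with an interval of the difference of -0.77 to 3.69.

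Markers of other cell types also parted between the groups. The 6 islet markers tested all had a higher difference and opposite directions. Ins2, insulin, was read at 3.05, 13.2, 96.5, 80.7 and 12.3 CPM in the PHx livers, against 0, 0 and 0 CPM in the sham livers, and at 0, 0, 0, 0 and 0 CPM in the PHx quadriceps muscles, against 11.7, 2.57 and 2.61 CPM in the sham quadriceps muscles. Islet transcripts were thus read in the PHx livers and the sham muscles and were at 0 or near it in the other groups. The size of the Ins2 difference is not given, since groups at 0 leave no finite error, and the source of these reads was not tested. Muscle fibre markers had 7 of 18 members lower, 13 without PHx liver replicate 1, 4 without sham liver replicate 1 or any 1 sham muscle, and 0 once genes under 1% of the other tissue were left out. Hepatocyte markers had 11 of 16 lower, 5 without PHx quadriceps replicate 4, 7 without sham quadriceps replicate 2, and 0 once genes under 1% were left out. Neutrophil markers were up in liver for 8 of 8 and in quadriceps for 5. With Lcn2 included, which with Csf3r made up 99.3% to 99.9% of the sum in PHx livers, they summed to 2334 to 11104 CPM in PHx livers against 13.5 to 59.4 CPM in sham livers, and 98 to 396 CPM in PHx quadriceps against 4.61 to 8.66 CPM in sham quadriceps. Cholangiocyte markers summed to 203 to 508 CPM in PHx livers against 44.4 to 48.8 CPM in sham livers, and to 46.6 to 82.4 CPM in PHx quadriceps against 63.6 to 75.5 CPM in sham quadriceps, where the groups overlapped. Spp1 and Sox9 made up 86.3% to 93.2% of the cholangiocyte sum in PHx livers and 48.8% to 57.4% in sham livers. Endothelial markers summed to 675 to 917 CPM in PHx livers against 603 to 695 CPM in sham livers, and to 899 to 1689 CPM in PHx quadriceps against 677 to 963 CPM in sham quadriceps, overlapping in both tissues. The part of these cells in the differences was not tested.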

How the data were processed

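RNA-seq libraries came from livers and quadriceps muscles of sham and PHx mice. Per the submitters' processing notes, reads were checked with FastQC 0.11.5, aligned to mm10 with STAR 2.7.10a and assigned to genes with featureCounts of Subread 2.0.3; edgeR 3.40.2 is also named there. The values used were the raw counts per gene that the authors deposited, for 14702 genes in 36 libraries; the annotation and strand setting are not given in the sources used here, so reads of overlapping or antisense genes cannot be told apart. Another 36 columns of log2 CPM were not used. The deposited counts hold 23 symbols written as dates and 2 duplicated symbols.

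Counts were fitted in R 4.3.3 with edgeR 4.0.16 (TMM factors within each tissue, robust quasi-likelihood fit, 1 mean per group). All 36 libraries, including those of days 1 and 7, entered the fit to share the estimate of spread, and the contrasts used the 16 sham and day 3 libraries. Genes had to pass filterByExpr in both tissues. P-values were Benjamini-Hochberg adjusted over the 12780 genes, with a threshold of 0.05; SEs are those of the fitted log2 values. An alike change needed a call in both tissues, the same sign, and a 95% interval of the difference within 1 log2 unit of 0. An opposite change needed calls in both tissues and of the difference, with opposite signs. The CPM printed are counts scaled to the TMM effective library size. Other-tissue transcripts were estimated by scaling the other tissue's level of a gene by Acta1 (muscle in liver). The fit was tested on simulated data in which few of the 12780 genes were changed, and it missed many of those changes. Of changes made in liver only, it called the difference for 1.49% of 67 genes at 1.5-fold, 22.4% of 67 at 2-fold and 63.6% of 66 at 4-fold. Of changes made in both tissues, 30% of 50 genes at 2-fold and 38% of 50 at 4-fold met the alike rule. False calls made up 4.92% of the differences called, a share that rests on 3 calls. In the deposited data 41.5% of genes had a called difference, so the adjusted p cut fell elsewhere. The simulated shares are therefore not the rates of the reported fit. A gene without a call, or outside the alike set, may still have changed.

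Named genes had a mean of at least 5 CPM in each tissue, a lower tissue of at least 1% of the higher, and no predicted gene model. They were the 6 largest differences each way, 5 opposite and 6 alike genes each way, up to 3 genes per list by smallest p, and a fixed set, the last 2 without the level rule; exceptions are marked in the text. Some genes that this rule picks are not reported here. The genes and lists were chosen with earlier results of these data known. Alternatives were other scalings, DESeq2 1.42.0, limma 3.58.1 (voom), no expression filter, the 16 libraries alone, a replicate block, leaving out genes under 1% of the other tissue, and leaving out each library. Promoters are from RefSeq (GRCm38.p6). Precision is set by the 3 sham and 5 PHx libraries of each tissue.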

Additional observations from a re-analysis of the deposited data

Results flagged for a closer look

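The tissues' responses differed, by the test of the difference itself, in 2590 genes with a higher and 2717 with a lower liver minus quadriceps response, and 686 genes were called in opposite directions.

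For genes named here, the 5 PHx values of 1 gene in 1 tissue were examined with Dixon's test on CPM, 283 sets in all. In 31 sets 1 library stood far from the other 4. The nominal rate of 1 set in 20 holds for independent, normally distributed values. These sets share libraries, so no excess over chance is read from the count. PHx quadriceps replicate 5 was the one in 15 genes. It was highest for Col1a1 (38.1 CPM), Col3a1 (32.7), Col6a1 (19.9), Col6a2 (12.1), Ltbp2 (1.14), Mki67 (5.49), Rbl1 (4.34), Dbp (11), Dlc1 (35.2), Idh1 (39.2) and Lcn2 (389). It was lowest for Psma4 (53.5 CPM), Sod1 (89.1), Txn1 (20.1) and Utp14a (23.8). In all of these except Lcn2 it lay nearer to the sham muscles than the other PHx muscles did, and the cause was not tested.

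PHx liver replicate 1 was the one in 10 genes: Arrdc3 (55.4 CPM), Fbxo31 (13.2), Inmt (27.4), Itga5 (39.5), Mt1 (1249), Nlrc5 (43.4), Nop10 (42.3), Txn1 (54.6), Ucp3 (0.209) and Usp14 (66.2). PHx quadriceps replicate 1 stood apart for Mcm10 (3.57 CPM), Nlrc5 (4.3) and Tgfb2 (24.4). PHx liver replicate 2 stood apart for Ppargc1a (108 CPM) and Stat3 (348), and PHx liver replicate 4 for Maff (8.34 CPM).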

How the results depend on the processing

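The counts of genes with a higher (2590) or lower (2717) difference stayed within 1.5 times in every alternative. With all libraries of the comparison kept they lay between 2407 and 3747 and between 2567 and 3715, and no named gene's called difference changed sign. The genes changed alike (230) numbered 900 with limma voom and 610 with the 16 libraries alone, and those changed in opposite directions (686) numbered 1922 and 1374; in both settings each test rests on other estimates of spread, and the cause was not tested. The DESeq2 test gave 275 alike and 847 opposite genes. With 1 library left out, the higher genes ranged between 2142 and 2836, the lower between 2322 and 2891, the alike between 109 and 247 and the opposite between 369 and 787. The lowest alike count came without sham liver replicate 1 or 3, and the lowest opposite count without sham liver replicate 3. Of the 177 genes that the rule for named genes picks, 165 to 177 kept their side of the threshold in each alternative. Equal replicate numbers in liver and muscle were not shown to mark paired samples, since correlations of their deviations ran between -0.079 and 0.145 and 2 of 8 livers correlated best with their own number. A replicate block gave 2806 higher and 2787 lower genes. The 3 sham libraries per tissue limit the precision of every value.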
